A study of Brassica napus with 15 samples.

Results

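The comparison is of C129, a winter oilseed rape accession whose seeds germinate fast, with C033, an accession of intermediate germination, over the first 72 h after imbibition. The paper rates C033 as medium beside C129, but its clustering by germination kinetics placed both in the faster group. Its members are the 10 RNA-seq libraries of the 2 accessions, out of 15 in the series, paired by time point, and the values are the TPM (transcript share of a library, corrected for gene length) of 101040 coding genes. For each accession there is 1 library of dry seeds (0 hours after imbibition, hai) and 1 each at 2, 12, 36 and 72 hai. The paper describes imbibition in water in the dark at 20 °C for its germination, metabolite and hormone assays. It does not name the RNA-seq seeds in that description. No treatment, transgene or mutation was involved, so that the accessions differ by their natural genotype and by whatever their seed lots carried from the field plots in which the plants were self-pollinated. Each library pooled the RNA of 3 biological replicates of 30 seeds. No error can therefore be given within an accession and time point, and the 5 time points stand in as replicates of an accession. The third accession of the series, C032, germinates slowly and is used here only for the spread between libraries and, beside some genes, as a further value.

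Brassica napus is an allotetraploid: it carries an A subgenome from the Brassica rapa lineage and a C subgenome from the Brassica oleracea lineage, and most genes have a close copy, a homoeolog, on the other subgenome. A dry seed holds stored mRNA left over from maturation, much of it for storage proteins, oil body proteins and small heat shock proteins. On imbibition this mRNA is degraded and is replaced by transcripts for translation, cell wall loosening, reserve use and, later, photosynthesis. Gibberellins promote this transition and abscisic acid and the DELLA repressors hold it back. The question of the comparison is which transcripts set a fast accession apart from an intermediate one, either at all stages or at particular ones.

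The libraries held 22.8 M to 41.7 M read equivalents over coding genes in C129, against 19.8 M to 38.5 M in C033. Read equivalents were computed from the deposited coverage and the gene length. One read pair on a gene of median length corresponded to between 0.0470 and 0.104 TPM, so that values well below 1 TPM rest on few reads. Non-coding genes took 5.83 to 18.0% of the coverage in C129 and 11.1 to 26.6% in C033, and the 10 most abundant coding genes took 2.70 to 5.58% of the coding TPM in C129 and 7.85 to 12.1% in C033. The median tested gene was higher in C129 at every time point on the deposited scale, by 0.19, 0.24, 0.48, 0.55 and 0.31 on the log2 scale at 0, 2, 12, 36 and 72 hai. Median-of-ratios scaling brings this median to at most 0.02, and with coding genes set to an equal total it is 0.13, 0.12, 0.23, 0.18 and 0.24. Counts of called genes are given on the deposited scale and, for the main comparisons, also under other scalings. Part of the C129 excess at a given gene cannot be told apart from this shift. Transcripts of 1 or more TPM in at least 1 library were seen for 55755 genes in C129 and 52360 in C033, of which 50829 were shared.

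Both accessions passed through the same stages. Transcripts matched to Arabidopsis oleosin and caleosin genes, which coat oil bodies, summed to 102 TPM at 0 hai and 0.395 TPM at 72 hai in C129, against 89.5 and 0 TPM in C033. The 6 genes of the photosystem and light harvesting list summed to 2.51 TPM at 0 hai and 67.9 TPM at 72 hai in C129, against 4.06 and 78.3 TPM in C033. Not every member of this list rose. BnaC02g17140D and BnaC02g17150D, both matched to AT1G67090, had 1.12 and 0.789 TPM at 0 hai and 1.05 and 0.768 TPM at 72 hai in C129. In C033 they had 0.306 and 0 TPM at 0 hai and were listed at 0 at 72 hai. The seed storage list summed to 12.5 and 0.283 TPM at 0 and 72 hai in C129, against 64.6 and 0.102 TPM in C033. The sums of these stage markers were thus high and low at the same ends of the series in C129 as in C033. Pearson's correlation of log2(TPM + 1) between the accessions across the 53233 genes tested was between 0.928 and 0.941 at the 5 time points. This is across genes, which are not independent replicates.

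The accessions were first compared at each time point by the fold rule of the study, a log2 ratio beyond 1, here on log2(TPM + 1). There is no test behind this count, because each ratio is between single libraries. In dry seeds 2753 genes were higher in C129 (5.17% of those tested) and 1460 were lower (2.74%). At 2 hai 4342 were higher (8.16%) and 1410 lower (2.65%), and at 12 hai 6986 were higher (13.1%) and 1137 lower (2.14%). At 36 hai 6642 were higher (12.5%) and 1150 lower (2.16%), and at 72 hai 3114 were higher (5.85%) and 1283 lower (2.41%). The excess of higher genes thus peaked at 12 and 36 hai, which are also the time points at which the median gene was shifted most. Under median-of-ratios scaling the numbers were instead highest at 2 hai and fell to 72 hai, and the balance turned: 1780 genes were higher and 2365 lower at 0 hai, 1924 and 2659 at 2 hai, 1591 and 2169 at 12 hai, 1578 and 1969 at 36 hai, and 1502 and 1754 at 72 hai. The share of higher genes was 86.0% at 12 hai on the deposited scale and 42.3% after median-of-ratios scaling. Of the genes past the fold, 726 were higher in C129 at all 5 time points and 369 were lower at all 5 (373 and 565 after scaling). At 12 hai alone 3153 genes were higher and 127 lower, but 345 and 429 after scaling. This was not particular to 12 hai, since at 36 hai alone 3052 were higher and 172 lower, but 432 and 383 after scaling. At 0, 2 and 72 hai alone 351, 1326 and 744 were higher and 248, 233 and 221 lower. After scaling these were 400, 439 and 395 higher and 471, 719 and 286 lower, so that 12 hai then had the fewest higher genes.

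**Figure D1:**
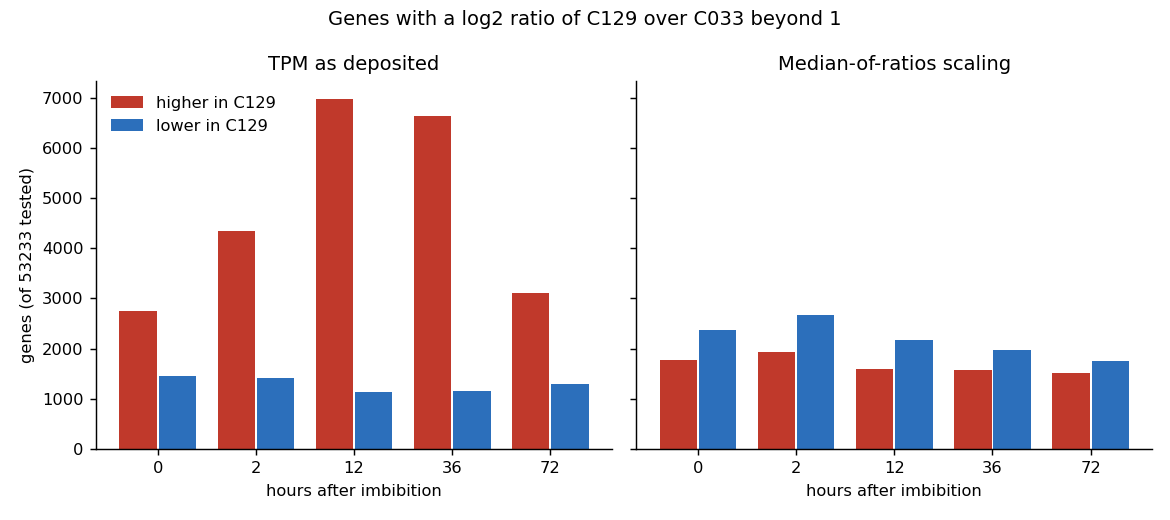
Number of genes (of 53233 tested) whose log2 ratio of C129 over C033 was beyond 1, by hours after imbibition, for TPM as deposited and after median-of-ratios scaling. Red bars count genes higher in C129 and blue bars genes lower in C129, with 1 library behind each side of a ratio. On the deposited scale the red bars reach 6986 at 12 hai, while after scaling the blue bar is the taller at every time point.

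The difference over all 5 time points was tested with limma on log2(TPM + 1), with time as a second term and all 15 libraries giving the spread. A difference counted as called where it exceeded 1 on the log2 scale and its p, adjusted by Benjamini and Hochberg's method over all genes tested, was under 0.05. In C129 2272 genes were higher (4.27% of those tested) and 894 were lower (1.68%). Under median-of-ratios scaling 975 were higher and 1385 lower, and with coding genes alone set to an equal total 1668 and 1197. Called in the same direction under all 3 scalings were 975 higher genes (1.83%) and 883 lower genes (1.66%). Almost every lower call stood under each scaling, while many of the higher calls rested on the deposited scale. Both other scalings shift C129 downwards. The median difference was 0.364 as deposited, 0.198 with coding genes rescaled and 0.0144 under median-of-ratios scaling. Such a shift favours lower calls, so that their standing under each scaling is not a test of them. The values of the accessions did not overlap, all 5 of C129 lying above or below all 5 of C033, in 1167 of the higher and 515 of the lower genes. Among all genes tested this was so in 5.3% upwards and 1.16% downwards. In 546 of the higher genes 1 accession stayed under 1 TPM in every library (24.0%), as it did in 372 of the lower genes (41.6%). Leaving out 1 time point gave 1973 to 2730 higher and 823 to 918 lower genes. The p-values measure only the spread between these 15 libraries.

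The gene with the largest positive difference was BnaA07g32570D, a gene of 5 exons on chromosome A07, with 138, 143, 190, 145 and 95.6 TPM in C129 at 0, 2, 12, 36 and 72 hai, against 1.79, 1.34, 1.59, 0.407 and 0.714 TPM in C033. It was strongly expressed at all stages in C129 and near the floor at all stages in C033, with a log2 difference of 6.06 ± 0.18 (SE, limma adjusted p = 2.5e-11). C032 had 84.2 to 119 TPM and thus stood with C129. BnaA10g23810D, of 3 exons on A10, had 58.0, 61.6, 64.5, 120 and 44.6 TPM in C129, while it was listed at 0 in all 5 libraries of C033. No fold is given for it, since its fitted difference depends on the pseudocount. BnaC07g08220D, of 7 exons on C07, had 43.6, 41.4, 74.0, 43.6 and 44.4 TPM in C129, against 0, 0.0291, 0.0386, 0.0611 and 0.0321 TPM in C033 (5.57 ± 0.14, limma adjusted p = 1.2e-11). In C032 this gene did not pass 0.318 TPM, so that here C129 stood alone. BnaCnng28170D behaved likewise, with 26.6 to 34.0 TPM in C129, at most 0.116 TPM in C033 and at most 0.274 TPM in C032.

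A pair of the leading genes on chromosome C01 have neighbouring numbers, within a run of 8 higher genes whose members lie on 6 scaffolds of the assembly. BnaC01g43100D had 87.3, 85.3, 75.8, 46.9 and 31.6 TPM in C129, against 0.463, 0.595, 0.864, 0.127 and 0.187 TPM in C033. BnaC01g43180D had 52.5, 52.5, 110, 45.8 and 48.1 TPM in C129, against 0.639, 0.438, 1.09, 0.333 and 0.651 TPM in C033. Both differed by over 5 on the log2 scale (5.44 ± 0.15 and 5.20 ± 0.15), and C032 had 12.5 to 20.4 and 26.1 to 69.7 TPM. BnaAnng36820D, a gene of 2 exons not placed on an A chromosome, had 20.4, 36.5, 134, 98.7 and 47.6 TPM in C129, against 0, 0, 2.98, 1.04 and 0.153 TPM in C033. BnaCnng19070D was most abundant in C129 before radicle emergence but lay above C033 at every time point. It had 123, 143 and 60.2 TPM at 0, 2 and 12 hai and 3.74 and 12.5 TPM at 36 and 72 hai in C129, and no more than 0.277 TPM in C033. The remaining members of the 10 were BnaA01g33280D (20.6 to 41.4 TPM in C129, at most 0.215 TPM in C033) and BnaC01g28840D (23.3 to 44.5 TPM in C129, at most 0.640 TPM in C033). Their functions are not annotated in the sources used here.

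An Arabidopsis match was at hand for 8 of the 460 higher genes from which the named genes were taken. The largest difference among them was that of BnaC08g34420D, matched to AT2G23600 of the methylesterase family, with 40.3, 39.1, 28.7, 27.0 and 26.1 TPM in C129, against 0.310, 1.35, 0.217, 0.446 and 0 TPM in C033 (4.54 ± 0.15, limma adjusted p = 1.1e-10). It was thus present from the dry seed to the seedling in C129 and barely detected in C033. BnaC09g02460D, matched to AT5G48470, a plastid protein needed for chloroplast development in Arabidopsis, had 7.36, 7.20, 8.80, 20.0 and 23.4 TPM in C129, against 0.140, 0.337, 0.255, 0.392 and 1.03 TPM in C033. BnaC01g28890D, matched to AT1G10950, a transmembrane protein of the endomembrane system, had 2.33 and 2.75 TPM at 0 and 2 hai and 12.6, 19.6 and 15.2 TPM from 12 hai in C129, but no more than 0.392 TPM in C033. These genes followed the stage in C129 and stayed near the floor in C033.

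Other matched genes differed in degree. BnaA02g09160D, matched to AT5G55280, the plastid division protein FtsZ, had 7.32, 7.89, 19.2, 21.8 and 13.9 TPM in C129, against 2.83, 2.54, 4.97, 4.89 and 5.67 TPM in C033 (1.46 ± 0.20, limma adjusted p = 9.7e-05). BnaC02g48930D, matched to AT5G66450, a plastid lipid phosphate phosphatase, had 8.0 to 17.2 TPM in C129 and 2.44 to 5.16 TPM in C033. BnaA09g03370D, matched to AT5G49510, a subunit of the prefoldin chaperone, had 7.24 to 19.5 TPM in C129 and 2.70 to 6.98 TPM in C033. The last 2 matched genes, BnaC03g12410D (AT5G58640) and BnaA03g43580D (AT4G18070), had 8.60 to 23.5 and 2.00 to 21 TPM in C129, against at most 0.880 and 0.135 TPM in C033. None of the 146 lower genes of the same kind had a match. The matches came from an available part of a supplementary table of genes that change over time, so that these numbers say nothing about which functions differ.

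The gene with the largest negative difference was BnaA03g57150D, of 3 exons on A03, with 0.777, 1.19, 1.26, 0.752 and 0.358 TPM in C129, against 105, 123, 86.5, 38.4 and 35.6 TPM in C033 (−5.25 ± 0.21, limma adjusted p = 5.4e-10). C032 had 1.02 to 2.13 TPM, so that C033 stood alone. BnaC06g03980D, a gene of 30 exons on C06, was listed at 0 in C129 except for 0.0152 TPM at 12 hai, against 17.1, 16.5, 43.5, 62.9 and 47.0 TPM in C033 (−5.07 ± 0.25), and did not pass 0.524 TPM in C032. BnaCnng71630D was of the same kind, with 0.795 to 3.96 TPM in C129, 37.9 to 83.7 TPM in C033 and 1.39 to 4.96 TPM in C032. In other genes C032 stood with C033 instead. BnaC01g06430D, a gene of 1 exon, had 1.27 to 2.68 TPM in C129, 51.6 to 159 TPM in C033 and 73.1 to 278 TPM in C032. BnaC03g70790D had 0.520 to 1.40 TPM in C129, against 39.0 to 54.0 TPM in C033 and 80.2 to 112 TPM in C032. BnaC05g00290D had 0.527 to 1.24 TPM in C129, against 31.5 to 58.9 TPM in C033 and 30.2 to 47.5 TPM in C032.

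BnaA03g27910D, a gene of 3 exons and 462 bases on A03, was the most abundant of the 10 lower genes. It had 10.4, 9.24, 2.25, 1.93 and 1.16 TPM in C129, against 416, 496, 156, 14.5 and 20.5 TPM in C033 (−4.42 ± 0.44, limma adjusted p = 4.8e-05). Its RNA was thus plentiful in the dry and freshly imbibed seed of C033 alone, since C032 had 0.256 to 18.2 TPM. The other members of the 10 were BnaC01g40360D (0.215 to 1.44 TPM in C129, 18.1 to 57.3 TPM in C033 and 2.11 to 4.89 TPM in C032), BnaCnng18330D (at most 0.666 TPM in C129, 20.1 to 29.4 TPM in C033 and 6.70 to 18.0 TPM in C032) and BnaA04g29090D (at most 0.941 TPM in C129, 16.9 to 38.2 TPM in C033 and 15.5 to 35.4 TPM in C032). All 20 leading genes kept their direction and their call when any time point was left out.

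**Figure D2:**
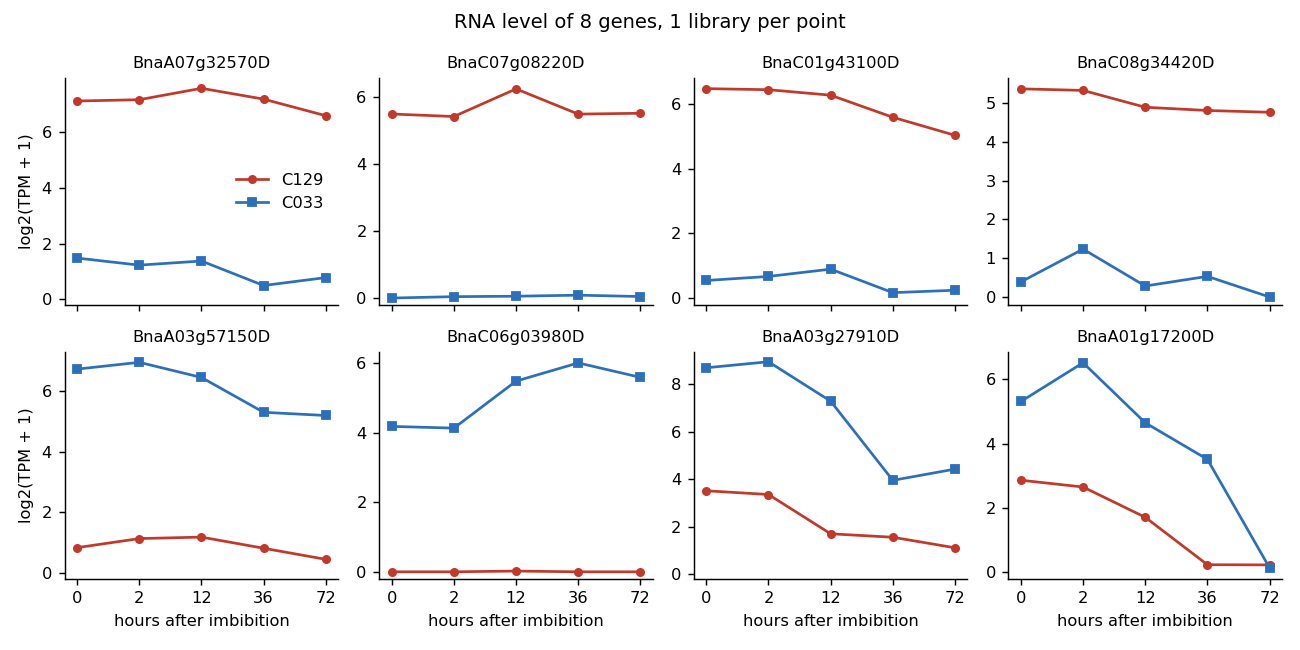
RNA level, as log2(TPM + 1), of 8 genes in C129 (red circles) and C033 (blue squares) by hours after imbibition, with 1 library per point. In the upper row C129 lies above C033 throughout; in the lower row it lies below, and in BnaA01g17200D, a napin match, the lines meet at 72 hai, where both accessions are at most at 0.174 TPM.

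Genes listed at 0 in every library of 1 accession but at 1 TPM or more in every library of the other were counted apart. There were 64 genes listed at 0 in C033 and present in C129, and 16 genes listed at 0 in C129 and present in C033. Of the 64, 16 were also at 0 in all 5 libraries of C032 and 14 reached 1 TPM in all 5. After BnaA10g23810D, the most abundant of the 64 was BnaC09g51980D, with 12.7, 9.89, 20.2, 69.7 and 29.4 TPM in C129. The most abundant of the 16 was BnaA06g01560D, a gene of 27 exons, with 3.99, 4.41, 16.0, 27.5 and 17.2 TPM in C033. BnaA06g26650D and BnaA06g26660D, which are neighbours, were both among the 16, with 2.76 to 15.1 and 2.30 to 8.43 TPM in C033. A gene that the accession lacks, a gene that is silent and a gene whose reads were assigned elsewhere cannot be told apart in these data.

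Called genes were not spread evenly along the genome. Runs were formed from called genes of 1 direction in the order of the numbers in their names, with at most 2 uncalled tested genes between neighbours. There were 49 runs of 5 or more genes, holding 455 called genes, and 264 of these genes lay on chromosomes A01 and C01, which are homoeologous. C01 had the largest share of lower genes among the named chromosomes, 5.74% of 2299 tested, and A01 the largest share of higher genes, 9.10% of 2220. Of calls under all 3 scalings C01 had 130 lower and 79 higher of 2299 tested (5.65% and 3.44%), and A01 had 71 higher of 2220, so that the share of A01 was then no longer above that of C01. The longest run held 39 lower genes among 43 tested, BnaC01g37560D to BnaC01g38570D. It was followed by 27 higher genes among 34 tested on A01, BnaA01g33400D to BnaA01g33970D, and by 2 runs of 26 higher genes on C01, BnaC01g28530D to BnaC01g29320D and BnaC01g35830D to BnaC01g36500D. Further runs of 21, 15 and 16 lower genes lay on C01 between BnaC01g38640D and BnaC01g40640D.

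Within the longest run the median gene had 0.194 to 0.570 TPM in C129 over the 5 time points, against 3.60 to 6.03 TPM in C033. Of the 39 calls of the run 38 stood under all 3 scalings, which is no test for lower genes. Its largest difference was that of BnaC01g38130D (−3.98 ± 0.47, limma adjusted p = 0.00020), which reached 24.3 TPM at most in C129, 647 TPM in C033 and 28.8 TPM in C032. BnaC01g37840D had 0.398 to 1.60 TPM in C129 and 13.9 to 26.8 TPM in C033, and BnaC01g37790D had 0.196 to 1.71 TPM in C129 and 9.53 to 27.9 TPM in C033. In the run from BnaC01g28530D the pattern was the opposite one. The median gene had 3.25 to 8.32 TPM in C129, at most 0.0642 TPM in C033 and 3.15 to 8.09 TPM in C032. BnaC01g29000D had 12.4 to 64.5 TPM in C129 and 0.253 to 1.73 TPM in C033 (4.23 ± 0.19, limma adjusted p = 2.0e-09), and BnaC01g28710D had 9.72 to 41.6 TPM in C129 and 0.219 to 0.625 TPM in C033. In the run from BnaC01g35830D the median gene had 1.98 to 4.99 TPM in C129 and at most 0.0814 TPM in C033. Here 23 of 26 and 25 of 26 calls stood under all 3 scalings.

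The A01 run differed from these in that its genes were expressed in both accessions. The median gene had 15.1 to 25.9 TPM in C129 and 5.53 to 7.32 TPM in C033, and its most abundant member, BnaA01g33660D, had 207 to 541 TPM in C129 and 87.5 to 194 TPM in C033 (1.45 ± 0.17, limma adjusted p = 3.0e-05). The shift of the median gene enters into such moderate differences, and only 3 of its 27 calls stood under all 3 scalings. The median difference of the run was 1.31, against 0.36 over all genes tested.

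**Figure D3:**
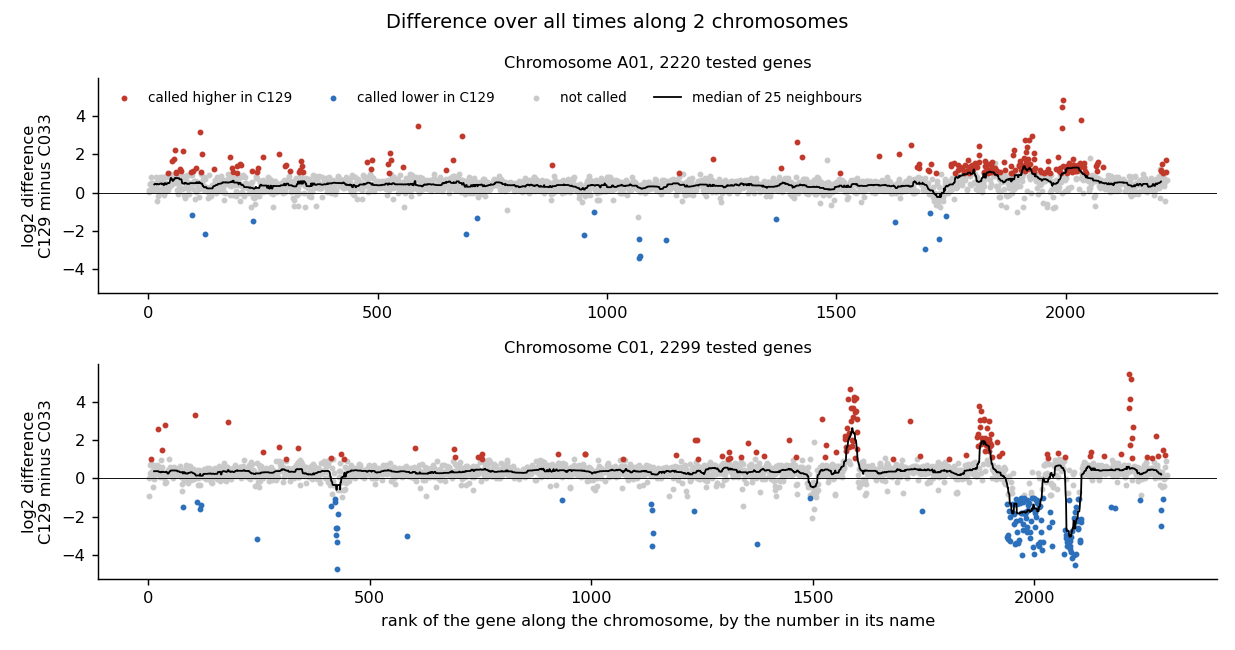
Log2 difference, C129 minus C033, over all time points for each tested gene of chromosomes A01 and C01, in the order of the gene numbers. Red points were called higher and blue points lower in C129, grey points were not called, and the black line is the running median of 25 neighbours. On C01 the line leaves its level in 2 upward and 2 downward blocks, and on A01 it is raised over the last part.

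The stretches that these runs span were then delimited on the plot along the chromosomes, after their values had been seen, and are given as a description. In BnaC01g37230D to BnaC01g39120D 67 of 89 tested genes were lower in C129, and in BnaC01g39840D to BnaC01g40640D 31 of 39 were lower and 1 was higher. Between them, from BnaC01g39130D to BnaC01g39810D, only 7 of 41 tested genes were called, and the median gene had 2.86 to 7.08 TPM in C129 and 3.09 to 6.58 TPM in C033. On A01, from BnaA01g29890D to BnaA01g33970D, 109 of 248 tested genes were higher in C129, 33 of them under all 3 scalings, and 228 had a positive difference. Over all 53233 genes tested only 6527 had a negative difference, so that a positive one was the rule on the deposited scale. In the stretches lower in C129 the median gene of C032 was also low, at 0.402 to 1.09 and 0.863 to 1.94 TPM. By these medians C033 stood apart, but runs within the stretches differed. In the run from BnaC01g38640D the median gene of C032 had 2.34 to 7.49 TPM and lay above that of C033 at every time point. C129 was there at most at 0.367 TPM and stood apart. In the run from BnaC01g39840D C032 lay between, at 1.48 to 4.47 TPM. C129 had at most 0.785 TPM there and C033 at least 8.76 TPM. In the runs from BnaC01g37230D, BnaC01g37560D and BnaC01g40320D C032 was at most at 2.66, 0.474 and 1.29 TPM. In the stretches that were near 0 in C033, C032 had 3.15 to 8.09 and 1.44 to 5.88 TPM, so that C033 again stood apart. Together the 5 stretches held 440 tested genes, 162 of the 2272 higher and 98 of the 894 lower genes, and outside them 2110 and 796 genes were called. Under all 3 scalings the stretches held 81 higher and 96 lower genes. Several of them span more than 1 scaffold of the assembly, and the order between scaffolds is that of the gene numbers. Since reads of homoeologous copies can be assigned to either copy, a level on C01 and the level of its A01 counterpart are not independent.

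**Figure D4:**
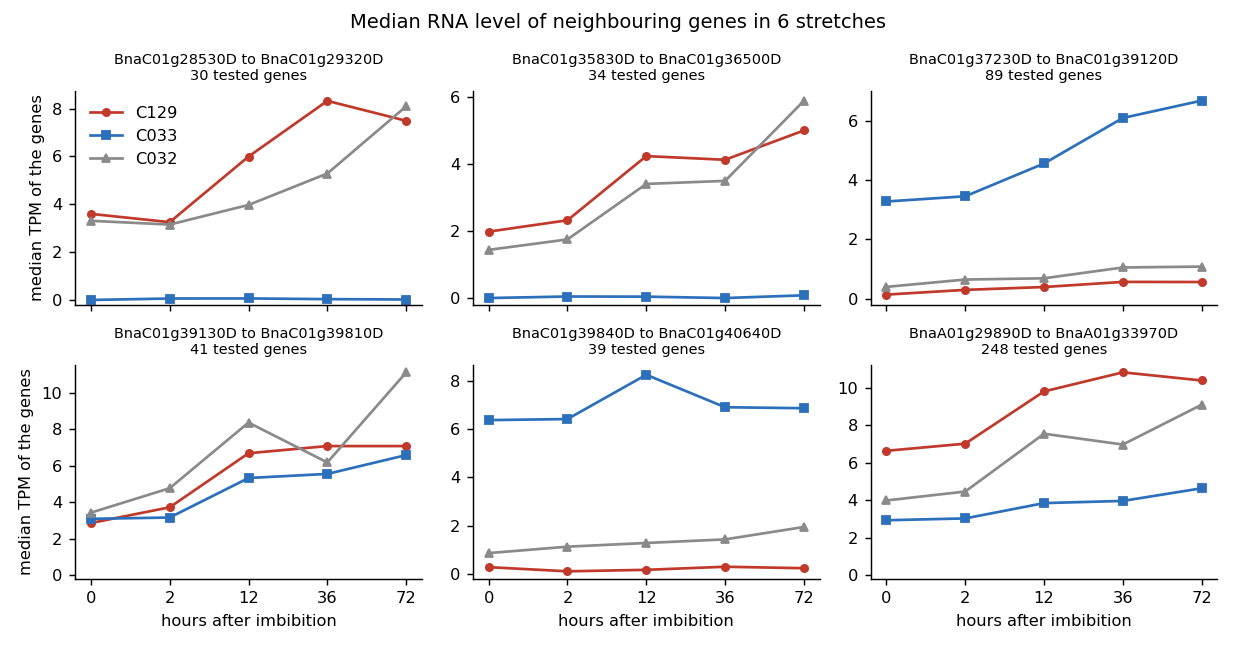
Median TPM of the tested genes in 5 stretches of C01 and 1 of A01, by hours after imbibition, for C129 (red), C033 (blue) and C032 (grey), 1 library per point. C033 lies near 0 in the first pair of panels, C129 lies at or below 0.570 TPM in the stretches from BnaC01g37230D and BnaC01g39840D, and in the stretch between them the lines run together.

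A shorter run on C09, BnaC09g02310D to BnaC09g02600D, held 12 higher genes among 14 tested and had the most Arabidopsis matches of the longer runs, 5 of 14. Its median gene had 2.75 to 6.02 TPM in C129, at most 0.141 TPM in C033 and 1.57 to 6.54 TPM in C032. BnaC09g02460D, described above, is one of these genes.

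The lists of germination genes were read next, and apart from the storage proteins they had few called members over all times. Of 5 tested seed storage genes 4 were lower in C129, against a background of 1.68%, and the median difference of the list was −1.68, against 0.36 over all genes tested. The 4 were lower under all 3 scalings, which is no test for lower genes. BnaA01g17200D, matched to the 2S albumins AT4G27140 and AT4G27170 (napins, the small sulphur-rich storage proteins of crucifer seeds), had 6.27, 5.28, 2.28, 0.179 and 0.174 TPM in C129, against 38.6, 90.4, 24.1, 10.4 and 0.102 TPM in C033 (−2.49 ± 0.47, limma adjusted p = 0.0024). BnaC01g19320D had 2.25, 2.13, 0, 0 and 0 TPM in C129, against 10.7, 16.2, 5.31, 1.63 and 0 TPM in C033 (−1.67 ± 0.39). RNA of these napin matches was thus scarcer in the dry seed of C129 and was at or near 0 by 36 hai, when it was still detected in C033. C032 had 21.9 to 26.3 TPM of BnaA01g17200D up to 12 hai.

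The other napin matches were lower in C129 too. BnaA03g48460D had 0.795, 0.578, 0.128, 0 and 0 TPM in C129, against 8.38, 16.0, 6.23, 1.70 and 0 TPM in C033 (−1.98 ± 0.46). In C032 this gene did not pass 0.473 TPM, so that the copies differed in which accession C032 resembled. BnaC07g40770D had 1.17, 0.971, 0.140, 0 and 0 TPM in C129, against 3.73, 12.9, 5.56, 2.85 and 0 TPM in C033 (−1.68 ± 0.52). At 72 hai 3 of the 4 were listed at 0 in both accessions and BnaA01g17200D was at or below 0.174 TPM in each, and BnaC08g43570D, a cruciferin-like gene matched to AT1G03890, was not called (−0.69 ± 0.25). Napin genes are near-identical copies among which reads can be split, and napin genes without an Arabidopsis match at hand are not covered.

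No other list of stored seed transcripts had a called member. The 6 small heat shock genes all had negative differences, with a list median of −0.53, but none passed the threshold. BnaA03g03740D, one of the HSP17.6 loci named in the paper, had 263, 225, 56.4, 0.577 and 0.333 TPM in C129, against 357, 363, 112, 3.42 and 2.39 TPM in C033 (−0.99 ± 0.25). The 3 oil body genes were level in dry seeds, summing to 102 TPM in C129 and 89.5 TPM in C033, and at 12 hai summed to 19.6 TPM in C129 and 27.8 TPM in C033. The pair of LEA matches, which protect the drying embryo, summed to 37.8 TPM at 0 hai and 5.12 TPM at 12 hai in C129, against 42.6 and 10.3 TPM in C033. At 12 hai the medians of the storage, heat shock and oil body lists lay 3.14, 1.36 and 1.16 below the median of all genes, as the plot of list medians shows. Each of these is a ratio of single libraries.

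**Figure D5:**
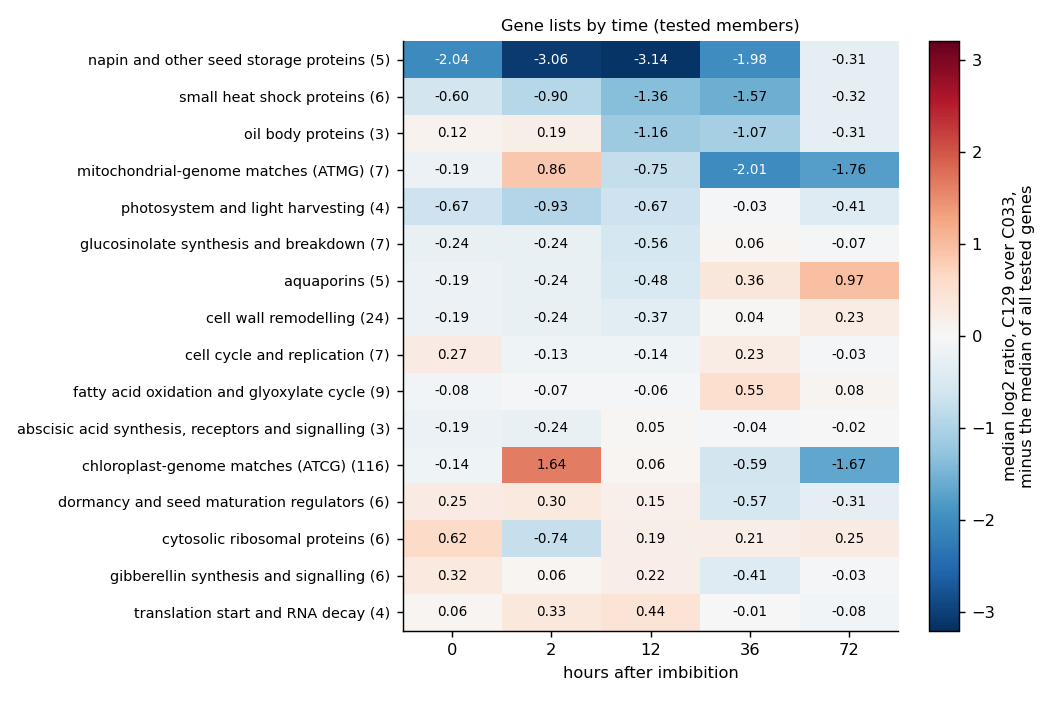
Median log2 ratio of C129 over C033 for the tested members of each gene list (number in brackets), minus the median of all tested genes, by hours after imbibition. Blue cells are lower and red cells higher in C129 relative to all genes; the storage protein list is lowest at 12 hai (−3.14), and the chloroplast-genome matches change from 1.64 at 2 hai to −1.67 at 72 hai.

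Regulators of germination did not pass the threshold. RGL2, a DELLA repressor of gibberellin responses, was represented by BnaC05g47760D, with 28.5, 33.1, 178, 48.4 and 13.1 TPM in C129, against 19.1, 22.3, 74.1, 40.5 and 12.7 TPM in C033 (0.53 ± 0.18). Its copy BnaA05g32640D had 30.6, 36.7, 164, 35.3 and 1.15 TPM in C129, against 37.5, 42.0, 112, 43.9 and 0 TPM in C033 (0.17 ± 0.46). ABI3, a regulator of seed maturation, was represented by BnaA03g37510D, with 51.1, 61.9, 146, 9.69 and 2.73 TPM in C129, against 46.5, 42.5, 84.1, 10.6 and 2.78 TPM in C033 (0.26 ± 0.19). These genes had their peak at 12 hai in both accessions, with more TPM in C129 at that time, and the median of all genes was shifted the same way by 0.48.

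Genes of gibberellin synthesis and perception did not pass the threshold either. BnaA03g47400D of that list, matched to AT4G25420, differed mainly at 12 hai. It then had 20.2 TPM in C129 and 2.42 TPM in C033, from single libraries. At the other times it was at or below 1.08 TPM in both (0.46 ± 0.42 over all times). KO1, encoding ent-kaurene oxidase (BnaC07g28980D), had 23.7, 17.6, 35.5, 60.5 and 32.7 TPM in C129, against 16.4, 16.9, 19, 33.4 and 21.2 TPM in C033 (0.57 ± 0.17). GA1, which encodes the enzyme of the first committed step (BnaA09g01090D), had 0.287 to 7.27 TPM in C129 and 0.355 to 5.37 TPM in C033, and the receptor GID1a (BnaC05g46680D) had 2.12 to 90.1 TPM in C129 and 3.14 to 71.3 TPM in C033. PIL5, a phytochrome-interacting repressor of germination (BnaC07g00780D), had the largest difference of the 16 loci upwards: 10.9, 11.9, 25.2, 8.93 and 8.58 TPM in C129, against 6.53, 6.82, 17.7, 5.78 and 5.50 TPM in C033 (0.60 ± 0.12). SPT (BnaA01g00730D), HFR1 (BnaC05g01110D), NF-YC9 (BnaA09g48620D) and DOF6 (BnaA02g06470D) differed by 0.40, 0.27, 0.42 and 0.04, the second copy of ABI3 (BnaC03g44820D) by 0.21, and the other HSP17.6 loci (BnaC02g04180D and BnaC03g05240D) by −0.80 and −0.42. NAC25 (BnaA09g13880D) stayed under 0.357 TPM in C129, was listed at 0 in C033 and was not tested. None of the 16 loci was therefore called, against backgrounds of 4.27% and 1.68%. Relative to the median of all genes (0.36), only BnaA03g03740D and BnaC02g04180D lay more than 1 away.

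Of the growth and reserve genes few passed the threshold. Of 24 tested cell wall genes none was called over all times, with a list median of 0.42, and their TPM summed to 96.6, 104, 418, 710 and 840 in C129, against 83.2, 75.4, 217, 389 and 476 in C033. Of 9 tested genes of fatty acid oxidation and the glyoxylate cycle none was called. Their largest differences were those of BnaA06g24040D and BnaC03g49190D, matched to the peroxisomal acyl-CoA oxidase AT5G65110, with 30.2 and 59.0 TPM at 12 hai and 258 and 351 TPM at 36 hai in C129, against 10.6 and 23.1 TPM and 108 and 150 TPM in C033 (0.84 ± 0.22 and 0.81 ± 0.18). One of 6 tested cytosolic ribosomal protein genes was higher in C129, against 4.27% of all genes tested, BnaC02g12080D, matched to the S30 family of the small subunit, with 3.65, 3.10, 7.80, 90.0 and 24.8 TPM in C129, against 0, 0, 0.554, 3.59 and 0 TPM in C033 (3.15 ± 0.39, limma adjusted p = 0.00015). No gene was called over all times in the lists of abscisic acid (3 tested), dormancy and seed maturation (6), gibberellin (6), cell cycle (7), photosystem (4), glucosinolate (7), aquaporin (5), translation start (4), resistance (1) and defensin (1) genes.

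Whether the difference between the accessions changed with the stage was tested by an interaction, the mean difference at 36 and 72 hai minus the mean difference at 0, 2 and 12 hai. By limma 569 genes had a higher C129 value after radicle emergence relative to before (1.07% of those tested) and 266 a lower one (0.5%), with 368 and 225 under median-of-ratios scaling and 286 and 162 under all 3 scalings. These counts depended on single time points. Without 0 hai they were 89 and 49, without 2 hai 138 and 76, without 12 hai 1070 and 425, without 36 hai 652 and 253 and without 72 hai 1114 and 210. In 136 of the higher and 104 of the lower genes 1 accession stayed under 1 TPM at all times, so that the interaction there is the time course of the other accession.

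Several genes appeared after emergence in C129 but hardly in C033. BnaC03g12320D, matched to the MYB-related AT5G58900, had 0, 0.0613, 0.863, 61.5 and 35.1 TPM in C129, against 0, 0, 0, 0.968 and 0.553 TPM in C033 (interaction 4.44 ± 0.39, limma adjusted p = 0.00015). BnaC09g38490D and its neighbour BnaC09g38500D, both of 1 exon, had 66.2 and 34.4 TPM at 36 hai and 11.4 and 5.52 TPM at 72 hai in C129, and at most 0.339 TPM in C033. BnaA01g30810D, matched to the DnaJ-type chaperone AT3G12170, had 13.8 and 12.0 TPM at 36 and 72 hai in C129, against 0.187 and 0 TPM in C033. BnaA10g29520D, matched to the cyclophilin AT5G58710, had 33.2 and 27.6 TPM at these times in C129, against 1.07 and 1.72 TPM in C033. All 5 genes were at or below 3.65 TPM in both accessions up to 12 hai. C032 reached 10.7 to 32.5 TPM in these genes, as C129 did.

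Genes of the cell wall and of water transport were among those with higher values after emergence in C129. BnaC07g27160D, matched to AT5G49360, a beta-xylosidase of the cell wall, was listed at 0 up to 12 hai in both accessions and had 69.6 and 170 TPM at 36 and 72 hai in C129, against 18.7 and 50.6 TPM in C033 (interaction 1.78). BnaC02g43200D, matched to the beta-xylosidase AT5G64570, had 8.70 and 10.5 TPM in C129, against 3.41 and 4.68 TPM in C033 (1.11). BnaA02g06180D, matched to the plasma membrane aquaporin AT5G60660, had 11.2 and 37.0 TPM in C129, against 3.69 and 12.5 TPM in C033 (1.43). They were 2 of 24 tested cell wall genes and 1 of 5 aquaporin genes, against a background of 1.07%. The median interaction was 0.20 in the cell wall list and 1.09 in the aquaporin list, against 0.08 over all genes tested. These genes were at 0 or under 1 TPM up to 12 hai in both accessions. The shift of the median gene at 36 and 72 hai (0.55 and 0.31) therefore enters into their interactions. BnaA10g28960D, matched to an organellar ribosomal protein (AT5G56940), had 10.1 and 9.82 TPM in C129, against 3.68 and 6.07 TPM in C033, but was lower in C129 before emergence.

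A positive interaction also arose where a transcript of the dry seed was scarce in C129. BnaA04g28930D had 7.68, 6.55, 1.46, 0.726 and 1.21 TPM in C129, against 252, 292, 95.4, 2.79 and 3.74 TPM in C033 (interaction 4.03 ± 0.30, limma adjusted p = 4.6e-05). BnaC06g21970D had 2.29, 2.69 and 0.712 TPM up to 12 hai and 79.4 and 117 TPM thereafter in C129, against 65.0, 63.6, 27.9, 74.6 and 108 TPM in C033 (4.28 ± 0.45). In this gene the accessions were level in the seedling and apart in the seed. BnaC01g38230D, in the longest run on C01, was listed at 0 in all libraries of C129 and had 20.5, 24.2, 9.56, 0.503 and 0.264 TPM in C033, and BnaC01g40630D, matched to the MATE transporter AT3G03620, had 1.17, 0.673, 0.443, 0 and 0 TPM in C129, against 29.4, 29.0, 12.1, 0.271 and 0 TPM in C033.

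Among the genes with a lower C129 value after emergence, some had little RNA after emergence in C129. BnaA04g08070D had 1.96 and 1.32 TPM at 36 and 72 hai in C129, against 43.0 and 42.6 TPM in C033 (interaction −4.06 ± 0.32, limma adjusted p = 6.9e-05), and was at most at 0.0527 TPM before that in either. C032 had 44.2 and 79.1 TPM at these times. BnaC01g38750D had 0.375 and 0.566 TPM in C129, against 16.8 and 46.0 TPM in C033 and 2.64 and 6.90 TPM in C032. BnaA03g09540D, matched to the lipid transfer proteins AT5G59310 and AT5G59320, had 2.31 and 5.80 TPM in C129, against 9.68 and 21.8 TPM in C033 and 6.94 and 25.6 TPM in C032. BnaC08g48830D crossed over: it had 10.1, 7.39, 9.61, 0.339 and 0.593 TPM in C129, against 1.86, 2.27, 1.18, 6.07 and 15.3 TPM in C033 (−4.75 ± 0.51, limma adjusted p = 0.0014). It was higher in C129 at each time point up to 12 hai and lower at 36 and 72 hai.

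Other negative interactions belonged to RNA of the dry or germinating seed that C129 had and C033 lacked or nearly lacked. BnaCnng47160D, matched to AT5G56860, the GATA factor GNC that acts in chloroplast development, had 17.7, 18.5, 64.5, 3.12 and 1.08 TPM in C129, against 0.149, 0.398, 1.60, 0.167 and 0 TPM in C033 (−2.72 ± 0.35, limma adjusted p = 0.0020). BnaA03g48320D had 25.5, 31.2, 17.6, 0.475 and 0 TPM in C129, against 0.591, 0.293, 0, 0 and 0 TPM in C033. BnaC03g48470D and BnaC08g34400D had 34.2 and 59.6 TPM in dry seeds of C129, against 0.132 and 0.972 TPM in C033. C032 had 31.4 TPM of BnaC03g48470D in dry seeds and 116 TPM of BnaC08g34400D at 2 hai. The interaction of BnaC08g34400D turned positive, to 1.01, with a pseudocount of 0.01. In these genes C129 and C033 differed in the seed and were both at or under 3.12 TPM at 36 and 72 hai. BnaA01g22780D (AT4G02110) had 16.5 TPM in dry seeds of C129 and BnaC06g15630D (AT2G07290) 13.1 TPM, against 0 and 0.0209 TPM in C033. Both were near the floor in C033 throughout.

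The last question was whether 12 hai, before the radicle emerges in most seeds, set the accessions apart. The difference at 12 hai was tested against the mean difference at the other times. By limma no gene was higher (0% of those tested) and 2 were lower (0.00376%), while 2065 genes had an unadjusted p under 0.05. Neither gene was called under median-of-ratios scaling. BnaA06g38450D had 11.6, 12.4, 0.187, 3.55 and 21.6 TPM in C129, against 12.1, 14.1, 9.38, 1.94 and 20.6 TPM in C033 (−3.24 ± 0.34, limma adjusted p = 0.014). BnaC02g17560D had 5.32, 4.39, 0, 11.3 and 7.84 TPM in C129, against 3.30, 4.11, 6.99, 8.88 and 8.59 TPM in C033 (−3.21 ± 0.32, limma adjusted p = 0.014). Each rests on 1 low library of C129. On simulated data of this design, simulated differences of 2 on the log2 scale were found in 22% of the genes that carried them, so that differences particular to 12 hai were mostly not detectable here. Only well expressed genes carried these differences, and the share for low genes was not measured.

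As a description of the position at 12 hai, the share of the change between 0 and 36 hai that had been reached at 12 hai was computed for genes that moved by over 1 on the log2 scale in the same direction in both accessions. For 13318 rising genes the median share was 38.5% in C129 (quartiles 13.5 and 65.6%), against 25.6% in C033 (3.47 and 50.7%), and 72.4% of the genes were further along in C129. For 5462 falling genes it was 28.7% in C129 (6.50 and 47.2%), against 27.4% in C033 (10.3 and 41.4%), and 55.0% were further along in C129. Under median-of-ratios scaling the medians were 22.3% in C129 and 16.3% in C033 for rising genes, and 47.6% in C129 and 36.9% in C033 for falling genes. C129 thus had the larger median under both scalings, by 12.9 and 5.99 percentage points for rising genes and by 1.30 and 10.8 for falling genes. The genes share the same 6 libraries, so that no error between seed lots can be attached to these medians.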

How the data were processed

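Total RNA of pooled seeds was sequenced from TruSeq libraries on a HiSeq2000 as paired reads of 100 bases. The authors used HISAT for mapping to the Brassica napus genome of Chalhoub and colleagues and StringTie for quantification; versions are not given in the sources used here. The TPM values were deposited by the authors and are relative to coding and non-coding genes together. The deposited coverage signal is the mean read depth of a gene, and was used for read equivalents only.

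Samples were grouped by the accession and time in their titles. Coding genes that reached 1 TPM in 3 or more libraries entered limma (version 3.58.1, R 4.3.3, trend and robust options) as log2(TPM + 1), so that fold changes of low genes are understated. The model for all times had 8 residual degrees of freedom and the interaction models 6. On simulated data simulated differences of 1.5 and 2 on the log2 scale were found in 98% and 99% of their genes by the test over all times, and in 26% and 57% by the late interaction. The simulated differences were placed only in well expressed genes, with normally distributed noise. These shares therefore do not hold for the low genes among those tested. Python 3.11.15 served for the descriptions (pandas 2.3.3, numpy 2.4.6, matplotlib 3.10.9). The alternatives tried were a minimum of 5 TPM or none, pseudocounts of 0.1 and 0.01, median-of-ratios scaling, coding genes rescaled, the 10 libraries alone, no time term, other fold limits and each time point left out. Genes called under all 3 scalings were counted as an alternative chosen after seeing the data.

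Named genes were the 10 largest differences in each direction over all times among called genes without overlap and with a mean of at least 10 TPM, the same among genes with an Arabidopsis match, the 6 largest interactions of each kind with at least 10 TPM in 1 library, the 16 loci of the paper, up to 4 members a list and called list members, and the genes of the 3 longest runs. Runs were ranked by called genes. The members and lists were chosen with earlier results of these data known. Arabidopsis matches were at hand for 3060 genes, of which 1841 were tested, and functions of Arabidopsis genes are background knowledge. Gene positions are the order of numbers in gene names.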

Additional observations from a re-analysis of the deposited data

Results flagged for a closer look

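The difference between C129 and C033 itself differed between time points, by the tested interactions, in 835 genes for 36 and 72 hai against 0, 2 and 12 hai and in 2 genes for 12 hai against the other times. The late interaction was positive, that is higher in C129 after emergence relative to before, in BnaC09g38490D (4.62), BnaC03g12320D (4.44), BnaC06g21970D (4.28), BnaA04g28930D (4.03), BnaC09g38500D (3.81), BnaC01g38230D (3.70), BnaA01g30810D (3.56), BnaC01g40630D (3.54), BnaA10g29520D (3.21), BnaC02g12080D (2.25) and BnaA10g28960D (2.16). It was negative in BnaC08g48830D (−4.75), BnaC01g38750D (−4.30), BnaA04g08070D (−4.06), BnaA03g48320D (−4.02), BnaC03g48470D (−3.82), BnaC08g34400D (−3.47), BnaCnng47160D (−2.72), BnaA01g22780D (−2.63), BnaC07g33020D (−1.93), BnaA06g19430D (−1.83), BnaA03g09540D (−1.68) and BnaC06g15630D (−1.66). BnaC07g33020D and BnaA06g19430D match the chloroplast genes ndhC and psbB, and had 8.68 and 72.9 TPM at 72 hai in C129, against 31.3 and 149 TPM in C033. At 12 hai BnaA06g38450D (−3.24) and BnaC02g17560D (−3.21) were low in C129. Each value is a log2 difference of differences on TPM + 1.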

How the results depend on the processing

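Over all times, genes higher in C129 numbered 4976 and 5003 with pseudocounts of 0.1 and 0.01, 975 under median-of-ratios scaling and under all 3 scalings, and 1065 without a time term. Genes lower in C129 numbered 1385 under median-of-ratios scaling, 592 with a minimum of 5 TPM and 474 without a time term. For the late interaction the counts were 114 higher and 62 lower with a pseudocount of 0.1, 40 and 19 with 0.01, and 291 and 135 with a minimum of 5 TPM. They were 368 higher under median-of-ratios scaling, 371 higher with coding genes rescaled, 157 lower in the 10 libraries alone, and 286 and 162 under all 3 scalings. With a time point left out they ranged over 89 to 1114 higher and 49 to 425 lower genes, and the all-time counts over 1973 to 2730 and 823 to 918. At 12 hai they were 5 higher and 5 lower with a pseudocount of 0.1, 13 and 11 with 0.01, 23 and 11 without a minimum, 1 higher with a minimum of 5 TPM, and 0 lower under median-of-ratios scaling or in the 10 libraries alone, by limma. With a time point left out they were 0 to 2 higher and 0 to 4 lower.

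Genes past the fold at 0, 2, 12, 36 and 72 hai numbered 11151, 13474, 16490, 15964 and 8199 with a pseudocount of 0.1, and 13248, 16187, 18531, 17377 and 9028 with 0.01. With a log2 ratio beyond 2 they numbered 920, 999, 1169, 1039 and 910. Median-of-ratios scaling left 3760 at 12 hai and 3547 at 36 hai, coding genes rescaled left 4609 at 36 hai, and a minimum of 5 TPM left 2614 at 72 hai. The lead of C129 in the share reached at 12 hai kept its sign under every alternative: it was 5.99 percentage points for rising genes under median-of-ratios scaling. For falling genes it was 10.8 under that scaling, 7.98 with coding genes rescaled, 0.779 with a pseudocount of 0.1, 4.80 for changes beyond 2 and 3.72 from 2 hai. Genes listed at 0 in C033 numbered 10 with 5 TPM in all 5 libraries of C129, 153 with 1 TPM in at least 3 of 5, and 103 when up to 0.1 TPM counted as 0. Those listed at 0 in C129 numbered 0, 57 and 33. Runs of 5 or more held 221 genes when no uncalled gene was allowed between. Of the named genes 1 turned, BnaC08g34400D, whose late interaction was 1.01 with a pseudocount of 0.01. Many others kept their direction but became weaker. Of 25 named interactions 19 did so with a pseudocount of 0.01, 11 with 0.1 and 10 without 0 hai. Of 123 named differences over all times 29 became weaker under median-of-ratios scaling and 36 without a time term. The cause of these changes was not tested.

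With 1 pooled library per accession and time point, seed lot, pool and genotype cannot be told apart. The series gives each accession 1 lot, and levels under 1 TPM rest on few reads. The labels carry no replicate numbers; the libraries are paired by time, which is a term of the model, and the counts without it are given above.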

Other observations

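Transcripts matched to genes of the Arabidopsis chloroplast genome took an order of their own. Their 116 members summed to 3328, 9989, 7547, 8661 and 12610 TPM in C129, against 2911, 2300, 4172, 5771 and 29199 TPM in C033. C129 was above C033 at 2 hai and below it at 72 hai. C032 had 11130 TPM at 2 hai, near C129, and 29004 TPM at 72 hai, near C033. One of the 116 was called higher over all times, against 4.27% of all genes tested, but not under all 3 scalings. This was BnaA06g19370D, matched to the chloroplast gene ATCG00780, with 123, 283, 180, 236 and 330 TPM in C129, against 73.5, 66.3, 79.2, 76.9 and 485 TPM in C033 (1.01 ± 0.33, limma adjusted p = 0.025). These genes sit in the nuclear assembly, and their reads can come from the organelle itself.

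The most abundant coding gene of all 10 libraries was BnaCnng12640D, on a scaffold where 4 of 74 genes match the mitochondrial genome. It had 6183, 11389, 9006, 6209 and 5935 TPM in C129, against 22373, 16004, 33649, 35632 and 26408 TPM in C033 (−1.78 ± 0.35, limma adjusted p = 0.0016). It alone took 0.676 to 1.48% of the coding TPM in C129 and 2.41 to 5.54% in C033.

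C032 takes no part in the difference between C129 and C033, and its mean level, after median-of-ratios scaling, was nearer to C033 than to C129 in 27150 of 53233 genes tested (51.0%). Among genes called under all 3 scalings this was so in 455 of 975 higher genes (46.7%) and 554 of 883 lower genes (62.7%).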
